A study of Oryza sativa with 6 samples.

Results

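Abscisic acid (ABA) is the plant hormone of water deficit and seed dormancy. Its level in a tissue is set largely by the balance between 9-cis-epoxycarotenoid dioxygenases (NCED), which cut a carotenoid in the committed step of synthesis, and ABA 8'-hydroxylases (ABA8ox), cytochrome P450 enzymes that begin its breakdown. RAB16 genes encode dehydrins, hydrophilic proteins of drying seeds and water-stressed tissues, and are classical targets of ABA signalling in rice. The 9 genes described here are NCED3, NCED4 and NCED5, ABA8ox1 and ABA8ox3, and RAB16A, RAB16B, RAB16C and RAB16D. They were chosen by locus identifier and make up 9 of the 56962 genes in the deposited count table. In root tips of the lad mutant the transcripts of the 3 NCED genes rose and those of ABA8ox1 fell, and reads of the 4 RAB16 genes, of which the wild type libraries held none, were present in all 3 mutant libraries.

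The study sequenced RNA from the terminal 0.5 cm of roots of rice (Oryza sativa) seedlings, taken 6 days after sprouting at 25°C. The wild type was J10 and the mutant lad, which also goes by the name sr1, with 3 libraries of each genotype and no treatment. The series title names SHORT-ROOT 1 and ties it to cell division and tracheary elements, and the mutated locus is not named in the labels. They also leave unsaid whether the libraries come from separate plants or batches of seedlings, so p-values measure the spread between these samples. Gene counts summed to 16405022 to 20693114 per library. Across genes, libraries of 1 genotype had Spearman correlations of 0.982 to 0.991, and libraries of different genotypes 0.885 to 0.925. Levels are given as CPM, read counts scaled to library size with the trimmed mean of M-values, and 1 read corresponded to 0.0514 to 0.0594 CPM. Among 22624 genes that passed a filter on low counts, 45.2% passed the threshold of 0.05 on the Benjamini-Hochberg adjusted p of the quasi-likelihood test in edgeR, with 24.9% higher and 20.3% lower in lad, a balance that turned with upper-quartile factors (5186 genes higher and 5325 lower). These shares are the background for each count below. Markers of other tissues were present at low level. The 7 seed storage and oil body loci summed to 7.71 to 8.32 CPM in J10 and 6.26 to 7.13 CPM in lad, most of it from LOC_Os10g26060 (7.2 ± 0.393 and 5.63 ± 0.734 CPM), with 1 locus at 0 in every library and 0 called. The 6 photosynthetic shoot loci summed to 2.75 to 3.44 and 3.8 to 5.51 CPM with 2 at 0, and 1 of them, LOC_Os01g41710, was called higher with 0, 0 and 4 reads in J10 and 29, 15 and 52 in lad (adjusted p = 0.00212, edgeR quasi-likelihood). LOC_Os01g41710 passed the filter on low counts through lad alone, so a difference was built into its passing. Root markers did not share a direction. Of 3 root meristem loci, summing to 238.3 to 275.9 CPM in J10 and 175.0 to 218.3 CPM in lad, 2 were lower and LOC_Os04g55970 was higher (49.0 ± 5.0 to 73.8 ± 21.5 CPM). Of 3 root hair loci, summing to 25.9 to 29.0 and 8.91 to 16.04 CPM, 2 were lower and LOC_Os10g42750 was higher (1.96 ± 0.593 to 5.72 ± 2.27 CPM). The part of these markers in the results below was not tested. In whole root tips, a change in the number of cells that express a gene and a change in RNA per cell cannot be told apart.

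The deposited descriptions matched the classes. The 3 NCED loci are described as carotenoid oxygenases, both ABA8ox loci as cytochrome P450, and the 4 RAB16 loci as dehydrins. The table itself gives no gene names. Of the 9 names, 6 occur as synonyms in the RefSeq rice gene table (assembly ASM3414082v1), each on the chromosome of the deposited locus, whereas none of the 9 locus identifiers does. None of the 9 loci overlaps another gene of the table. Counts exist for all 9 genes, but 6 passed the filter on low counts, which asks for about 10 reads in at least 3 libraries. NCED4, RAB16A and RAB16C passed it through their mutant libraries alone, so a difference was built into their passing, and no count over the 6 tested genes is used as support. Of these 6, 5 were higher and 1 lower in lad. The genotypes did not overlap for 8 of the 9 genes, 7 of them higher in lad. Of all tested genes, 56.8% were without overlap and 30.1% were higher without overlap. The sets are unlike, since those shares cover only genes that passed the filter, and ABA8ox3, RAB16B and RAB16D did not. The 4 RAB16 genes had 0 reads in J10, so any read in every lad library left them without overlap.

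**Figure D1:**
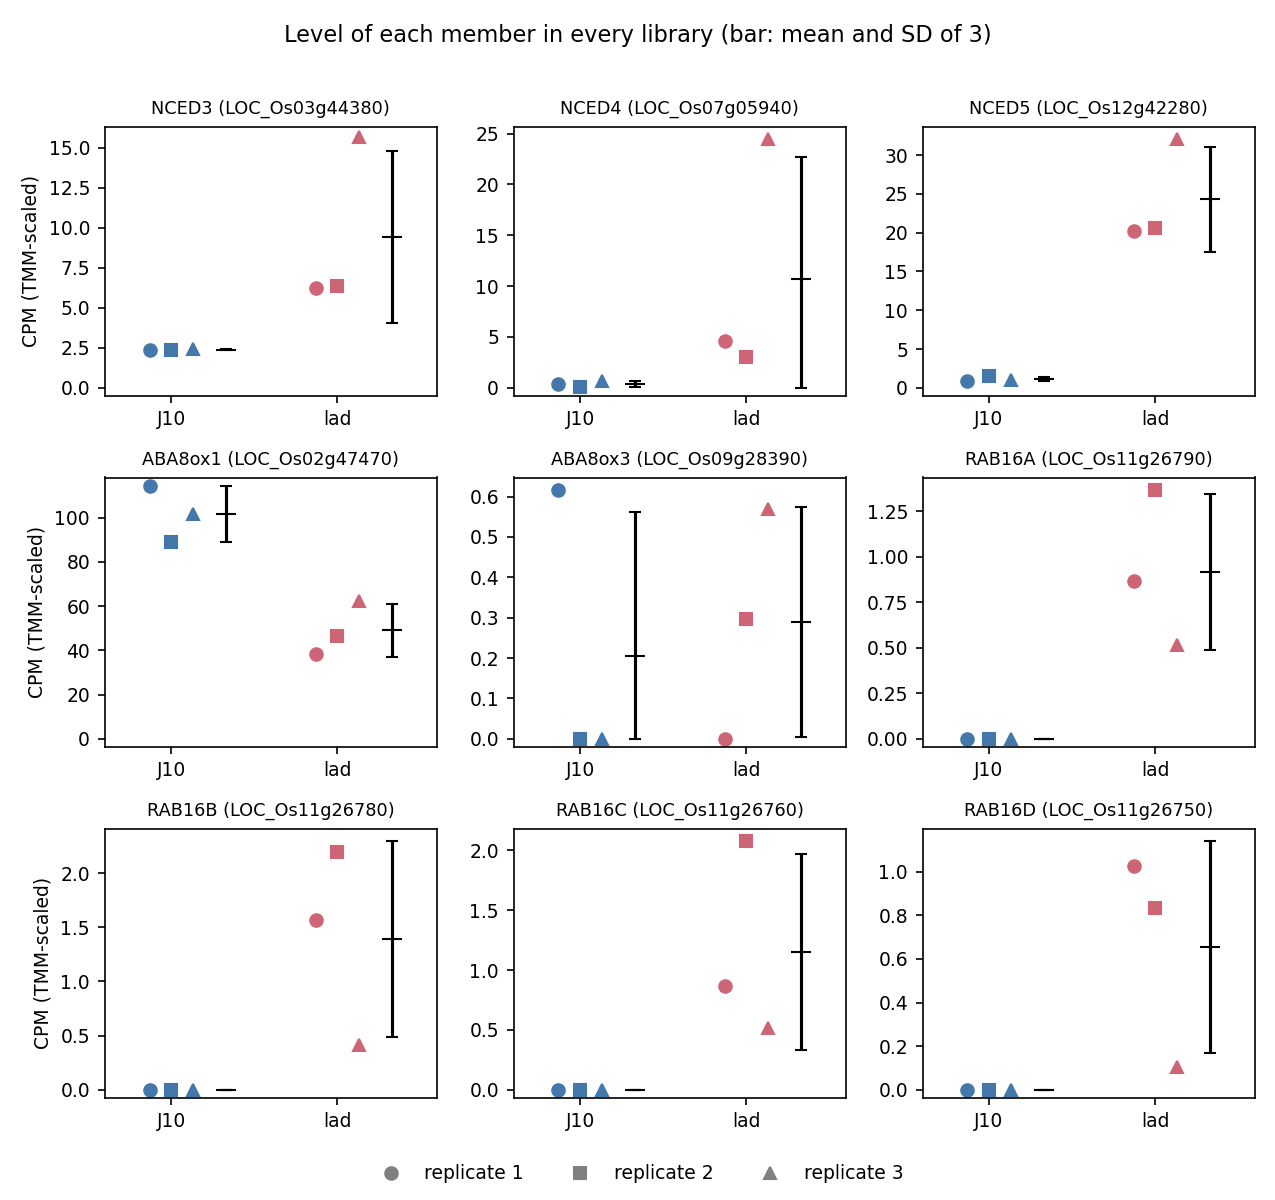
Level of each of the 9 genes in CPM (y axes linear, each with its own range) in the 3 J10 libraries (blue) and the 3 lad libraries (red), with the symbol giving the replicate and the black bar the mean and SD, cut at 0. The 3 NCED genes are higher in every lad library with replicate 3 on top, ABA8ox1 is lower in every lad library, and the 4 RAB16 genes are at 0 in J10 with lad replicate 3 lowest.

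All 3 NCED genes were higher in every mutant library than in any wild type library. NCED5 (LOC_Os12g42280, chromosome 12, 26268230 to 26270794, plus strand) stood at 0.925, 1.46 and 0.972 CPM in J10 replicates 1, 2 and 3 and at 20.2, 20.5 and 32.1 CPM in lad replicates 1, 2 and 3. The mean rose from 1.12 ± 0.299 to 24.3 ± 6.79 CPM (SD, n = 3), a log2 change of 4.43 ± 0.27 (SE; adjusted p = 1.05e-06, edgeR quasi-likelihood). This was the smallest standard error among the NCED genes, and lad replicate 3 was the highest of the mutant libraries.

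NCED3 (LOC_Os03g44380, chromosome 3, 24959107 to 24961777, plus strand) stood at 2.36, 2.35 and 2.43 CPM in J10 and at 6.27, 6.35 and 15.7 CPM in lad. In J10 the 3 libraries were nearly level, and in lad replicate 3 was well above the other two. The mean rose from 2.38 ± 0.0418 to 9.43 ± 5.41 CPM, a log2 change of 1.99 ± 0.36 (adjusted p = 0.00135, edgeR quasi-likelihood).

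NCED4 (LOC_Os07g05940, chromosome 7, 2870686 to 2872832, plus strand) had 8, 1 and 12 reads in J10, or 0.411, 0.0523 and 0.648 CPM, and reached 4.59, 3.03 and 24.5 CPM in lad. The mutant mean of 10.7 ± 12.0 CPM is carried by replicate 3, and the log2 change was 4.84 ± 0.90 (adjusted p = 0.00146, edgeR quasi-likelihood). Without lad replicate 3 the log2 change was 3.35 (adjusted p = 0.00412), and without J10 replicate 3 it was 5.45 (adjusted p = 0.00569, edgeR quasi-likelihood). The direction and the call held, and the size did not.

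The make-up of the NCED transcripts differed between the genotypes as well as their sum. Summed per kilobase of deposited gene length, the 3 genes gave 1.44, 1.48 and 1.59 CPM per kb in J10 and 12.4, 11.8 and 29.8 CPM per kb in lad. NCED3 held 61.6, 59.7 and 57.2% of that level in J10 and 19.0, 20.2 and 19.7% in lad, and the ranges do not overlap. NCED5 went from 25.1, 38.7 and 23.8% in J10 to 63.7, 67.9 and 42.0% in lad. NCED4 held 13.3, 1.65 and 19.0% in J10, 17.3 and 12.0% in lad replicates 1 and 2, and 38.3% in lad replicate 3. In read counts, the NCED3 share in J10 replicate 1 was 63.9% of 72 reads (exact 95% binomial interval 51.7 to 74.9%) and in lad replicate 1 20.2% of 575 reads (17.0 to 23.7%). Intervals and floors given here describe counting error alone and leave out the spread between libraries. PCR copies of 1 molecule could not be recognised, so even the counting error may be larger than given. No test of the shares was made.

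**Figure D2:**
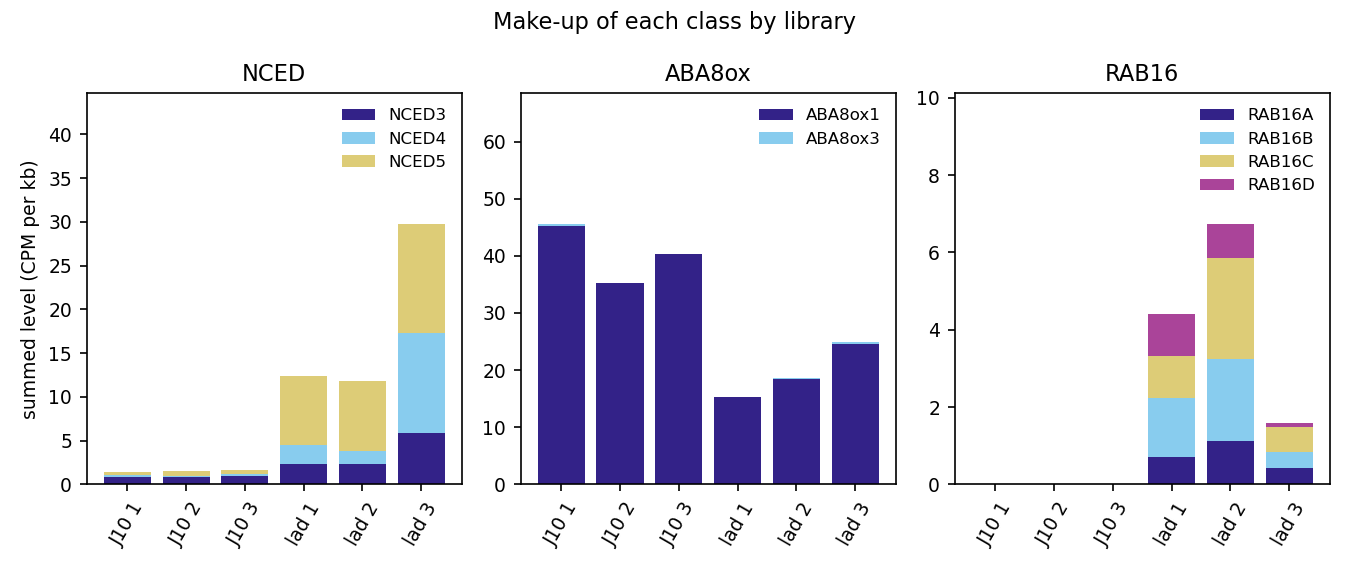
Summed level in CPM per kb of gene length (y axes linear from 0, each with its own range) for the NCED, ABA8ox and RAB16 genes in each of the 6 libraries, with colours for the genes. NCED3 is the largest part of the NCED level in J10 and NCED5 in lad, ABA8ox1 makes up nearly all of the ABA8ox level, and RAB16 is empty in J10.

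ABA8ox1 was the most abundant of the 9 genes in both genotypes and the one that fell. LOC_Os02g47470 (chromosome 2, 28995717 to 28998581, plus strand) stood at 114.3, 88.9 and 101.7 CPM in J10 and at 38.6, 46.4 and 62.1 CPM in lad. The mean went from 101.6 ± 12.7 to 49.0 ± 12.0 CPM, a log2 change of -1.05 ± 0.17 (adjusted p = 0.000583, edgeR quasi-likelihood). Every mutant library lay below every wild type library, and lad replicate 3 came nearest to the wild type.

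ABA8ox3 (LOC_Os09g28390, chromosome 9, 17252028 to 17255514, minus strand) was barely detected and did not pass the filter. It had 12, 0 and 0 reads in J10 and 0, 5 and 11 in lad, so the genotypes overlapped, and the ratio of pooled levels was 1.39 (95% counting interval 0.618 to 3.23). All wild type reads lay in replicate 1. With no filter the adjusted p was 0.803 (edgeR quasi-likelihood), and at this depth no difference was detected in either direction. A further locus of the family, LOC_Os08g36860, described as cytochrome P450, was not among the 9 and measured 26.4, 28.5 and 27.1 CPM in J10 and 16.9, 39.7 and 25.8 CPM in lad (means 27.3 ± 1.06 and 27.4 ± 11.5). Its log2 change was 0.00 ± 0.24 (adjusted p = 0.992, edgeR quasi-likelihood), with a sign that turned under 10 of 15 other settings, and the mutant libraries lay on both sides of the wild type. Of the reads of these 3 loci, ABA8ox1 held 75.7 to 80.9% in J10 and 53.7 to 70.2% in lad.

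Per kilobase, the order of the turnover genes in J10 was ABA8ox1 (40.3 ± 5.04 CPM per kb), NCED3 (0.892 ± 0.0157), NCED5 (0.437 ± 0.116), NCED4 (0.173 ± 0.14) and ABA8ox3 (0.106 ± 0.184). Of neighbours in that order, only NCED4 and ABA8ox3 overlapped in range. In lad the order was ABA8ox1 (19.4 ± 4.76 CPM per kb), NCED5 (9.47 ± 2.65), NCED4 (4.98 ± 5.57), NCED3 (3.53 ± 2.02) and ABA8ox3 (0.149 ± 0.147). The ranges of NCED5 and NCED4, and of NCED4 and NCED3, overlapped there, while the lowest ABA8ox1 library (15.3) lay above the highest NCED5 library (12.5). These orders are descriptions of levels.

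The RAB16 genes lie in tandem on the minus strand of chromosome 11, over 23670 bases, in the order RAB16D (LOC_Os11g26750, 15320188 to 15321526), RAB16C (LOC_Os11g26760, 15327768 to 15328657), RAB16B (LOC_Os11g26780, 15336034 to 15337163) and RAB16A (LOC_Os11g26790, 15342564 to 15343857). No source used here names the genome build of these coordinates. None of the 4 had a read in any J10 library. RAB16A had 16, 23 and 10 reads in lad replicates 1, 2 and 3, or 0.864, 1.37 and 0.517 CPM. RAB16B had 29, 37 and 8 reads, or 1.57, 2.2 and 0.414 CPM. RAB16C had 16, 35 and 10 reads, or 0.864, 2.08 and 0.517 CPM. RAB16D had 19, 14 and 2 reads, or 1.03, 0.831 and 0.103 CPM. All 4 were thus seen in all 3 mutant libraries at low level, with replicate 3 lowest for each gene. Of 30530 genes with any read, 1.73% had none in J10 and at least 1 in every lad library.

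With 0 wild type reads the fold is a lower bound with respect to the wild type alone. The J10 level was set to a floor of 3 reads over the 3 J10 libraries (0.0525 CPM). The mutant level was that of the pooled lad libraries, without its spread. At that mutant level, RAB16B was at least 25.8-fold higher in lad, RAB16C at least 21.2-fold, RAB16A at least 17.1-fold and RAB16D at least 12.2-fold. RAB16A and RAB16C passed the filter, with adjusted p-values of 0.00138 and 0.00186 (edgeR quasi-likelihood). RAB16B and RAB16D were too low in lad replicate 3 to pass it. With every gene that had a read in the fit, the adjusted p was 0.000504 for RAB16A, 0.000113 for RAB16B, 0.00024 for RAB16C and 0.00359 for RAB16D (edgeR quasi-likelihood), where 19.7% of 30530 genes were called higher. Leaving out a J10 library lowered each bound to 0.659 to 0.676 of its value because less wild type depth remained. The bounds without J10 replicates 1, 2 and 3 were 11.2, 11.3 and 11.5 for RAB16A, 17.0, 17.1 and 17.4 for RAB16B, 14.0, 14.1 and 14.4 for RAB16C, and 8.03, 8.1 and 8.23 for RAB16D. Without lad replicate 2 the bound for RAB16C was 13.1.

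**Figure D3:**
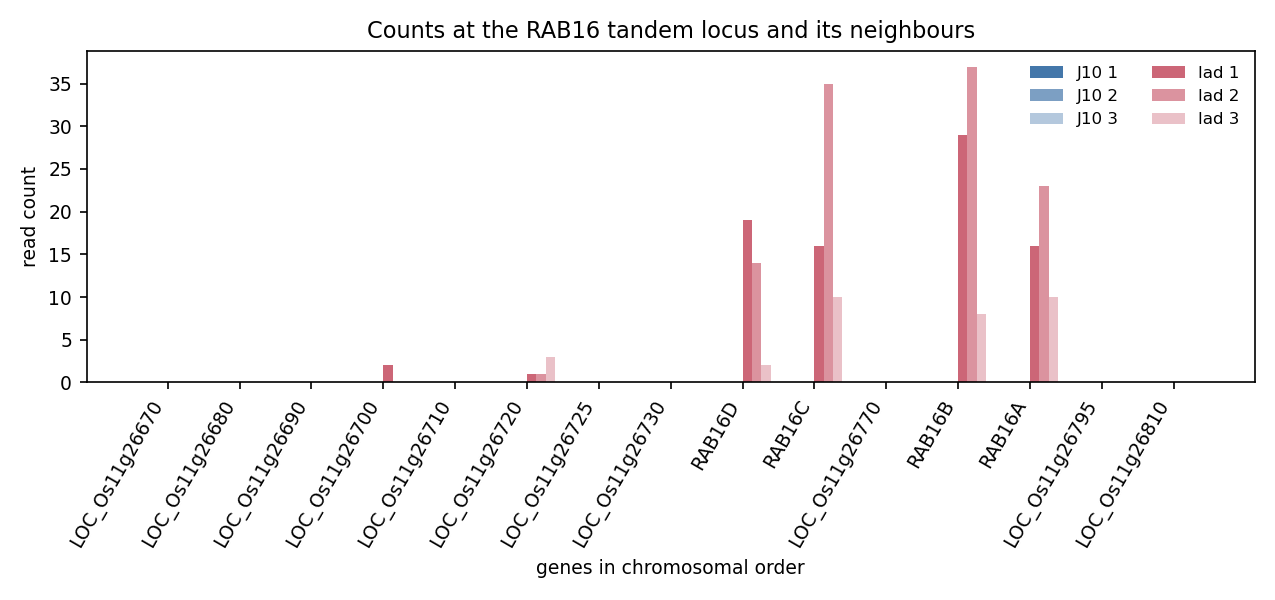
Read counts (y axis, linear from 0) in each library for the 4 RAB16 genes and the 11 other genes within 50 kb, in chromosomal order along the x axis. No J10 bar rises above 0, the 4 RAB16 genes carry 2 to 37 reads in each lad library, and no other gene there exceeds 3.

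Reads at this locus were concentrated on the 4 dehydrin genes. The table lists 11 other genes between them or within 50 kb of either end, of which 9 had 0 reads in all libraries and none passed the filter. The gene that lies between RAB16C and RAB16B, LOC_Os11g26770, was one of the 9. Outside the row, LOC_Os11g26700 had 2 reads in lad replicate 1, and LOC_Os11g26720 had 1, 1 and 3 in lad replicates 1, 2 and 3. RAB16 genes are similar in sequence, and how the counting divided reads that fit several of them is stated in no source used here, so the values of single RAB16 genes are less certain than their sum. That sum was 0 in each J10 library and 80, 109 and 30 reads in lad, or 4.32, 6.47 and 1.55 CPM. Per kilobase the mutant means were 1.45 ± 1.03 for RAB16C, 1.35 ± 0.874 for RAB16B, 0.759 ± 0.353 for RAB16A and 0.687 ± 0.511 CPM per kb for RAB16D, and every neighbouring pair in that order overlapped.

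Dehydrins outside the row did not share one direction. The list of other dehydrin and late embryogenesis abundant loci, a class of protective proteins first known from maturing seeds, holds 7 loci of which 5 were tested, 3 higher and 2 lower in lad, with a median log2 change of 0.36 against 0.02 over all genes. LOC_Os02g44870, described as a dehydrin, was the most abundant and fell from 218.3, 247.6 and 220.8 CPM in J10 to 105.1, 143.2 and 184.3 CPM in lad, a log2 change of -0.67 ± 0.18 (adjusted p = 0.0106, edgeR quasi-likelihood). The dehydrin locus LOC_Os01g50700 fell from 4.11 ± 0.405 to 1.74 ± 0.337 CPM (log2 change -1.23 ± 0.29, adjusted p = 0.00529, edgeR quasi-likelihood). The remaining dehydrin locus of the table, LOC_Os11g26570, lies on chromosome 11 at 15223324 to 15224819, outside the 50 kb window, and was named after its values were seen. It had 2, 0 and 0 reads in J10 and 10, 25 and 32 in lad, a ratio of 35.0 (95% counting interval 9.32 to 294.9; adjusted p = 0.00152, edgeR quasi-likelihood). It passed the filter through its mutant libraries alone, so a difference was built into its passing, and of the other 4 tested loci of the list 2 were higher and 2 lower. Both wild type reads lay in replicate 1, without which its pooled lad level was at least 15.4-fold higher at a floor of 3 reads. Without J10 replicate 2 the ratio was 23.3 (6.2 to 196.1) and without J10 replicate 3 it was 23.6 (6.29 to 199.2), because the 2 reads were then set against less wild type depth. Of the 7 loci that the table describes as dehydrins, the 5 on chromosome 11 had more reads in lad and the 2 elsewhere fewer.

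The 2 higher loci that remain in this list have no deposited description. LOC_Os05g46480 went from 8.63, 9.72 and 7.83 CPM in J10 to 10.7, 63.9 and 11.6 CPM in lad, so its log2 change of 1.71 ± 0.58 (adjusted p = 0.0334, edgeR quasi-likelihood) was carried by replicate 2. Without that library it was 0.35 (adjusted p = 0.168), and the call was also lost without any J10 library and with DESeq2, limma-voom or limma-trend. LOC_Os03g45280 went from 55.2 ± 2.76 to 70.6 ± 10.5 CPM (log2 change 0.36 ± 0.12, adjusted p = 0.0368), a call lost with upper-quartile factors (0.0723) and without any J10 library or lad replicate 2 or 3 (adjusted p from 0.0589 to 0.146, edgeR quasi-likelihood). Of the 2 untested loci, LOC_Os05g28210 had 0 reads in J10 and 0, 27 and 2 in lad, and LOC_Os03g20680 had 0, 0 and 4 reads in J10 and 0, 10 and 16 in lad.

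The rest of the ABA pathway was read from 53 loci in 8 lists compiled by identifier, of which the table describes 34. Among these, 50 had a read, 43 passed the filter, 18 were higher and 6 lower in lad (55.8% called), and their median log2 change was 0.40. Without J10 replicate 3 the number higher was 11, and without lad replicate 3 it was 13. Both loci listed beside the 3 NCED genes were near or at 0: LOC_Os02g47510, described as a carotenoid oxygenase and lying 27488 bases from ABA8ox1 with 3 genes between, had 4, 0 and 2 reads in J10 and 3, 0 and 1 in lad, and LOC_Os12g24800 had none. Of 6 loci listed for other steps of carotenoid and ABA synthesis, 3 were higher and 0 lower, with a median log2 change of 0.53. LOC_Os09g38320, described as a squalene/phytoene synthase, the class of enzyme that opens carotenoid synthesis, rose from 1.06 ± 0.595 to 11.9 ± 7.21 CPM (log2 change 3.47 ± 0.51, adjusted p = 0.000332, edgeR quasi-likelihood). Its mutant libraries were uneven like those of NCED3 and NCED4, with replicate 3 at 2.43 times the mean of the other two. LOC_Os04g37619, described by an FAD/NAD(P)-binding domain, rose from 21.8 ± 1.5 to 34.9 ± 2.7 CPM (adjusted p = 0.00101, edgeR quasi-likelihood). The third was LOC_Os06g45860, described by a molybdenum cofactor sulfurase domain and named after its values were seen, which went from 23.8 ± 1.71 to 31.9 ± 3.01 CPM (adjusted p = 0.0158). Its call was lost without J10 replicate 3 or lad replicate 3 (0.0972 and 0.0585, edgeR quasi-likelihood).

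**Figure D4:**
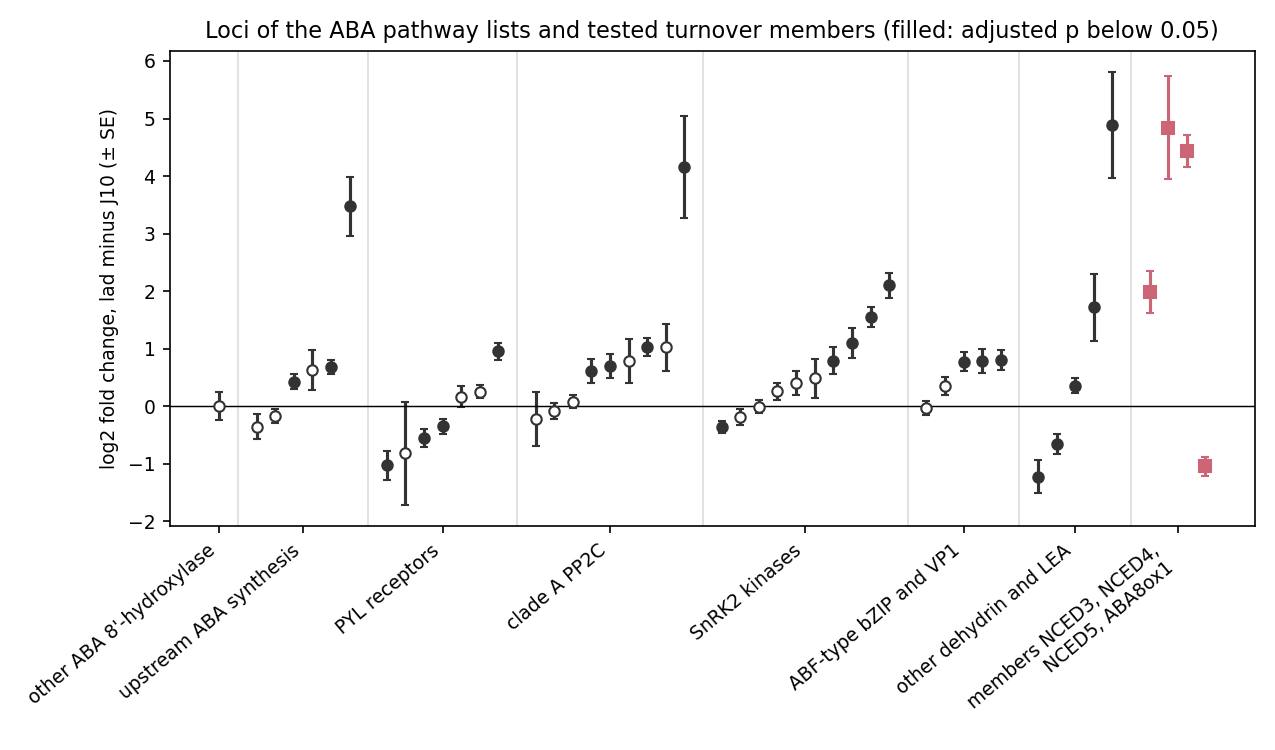
Log2 fold change, lad minus J10, with its standard error (y axis) for the 43 tested loci of the ABA pathway lists (black circles, filled at an adjusted p below 0.05) and for NCED3, NCED4, NCED5 and ABA8ox1 (red squares). RAB16 genes are left out because their J10 counts are 0, and the value near 4.89 among the dehydrins rests on 2 J10 reads. Only in the receptor list do filled loci below 0 outnumber those above (3 against 1), while 20.3% of all tested genes were lower and 24.9% higher. The call of LOC_Os10g42280, 1 of the 3, was lost under 7 of 15 other settings.

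ABA is perceived by PYL receptors, which on binding the hormone inhibit clade A protein phosphatases 2C (PP2C). This releases kinases of the SnRK2 family, which then phosphorylate bZIP transcription factors of the ABF type. Of 11 loci listed as PYL receptors, none with a deposited description, 7 were tested, 1 was higher and 3 were lower, with a median log2 change of -0.35. LOC_Os05g12260 rose from 25.9 ± 0.758 to 49.9 ± 10.8 CPM (adjusted p = 0.000544), LOC_Os06g36670 fell from 6.38 ± 0.802 to 3.12 ± 0.629 CPM (0.00608), and LOC_Os03g18600 fell from 93.5 ± 2.08 to 63.7 ± 14.2 CPM (0.0128, edgeR quasi-likelihood). The third lower locus, LOC_Os10g42280, was named after its values were seen and went from 85.5 ± 1.17 to 67.1 ± 12.4 CPM (adjusted p = 0.0487). That call was lost with library totals (0.133), with the filter of 1 CPM (0.0515) and without any library but lad replicate 2 (0.0523 to 0.169, edgeR quasi-likelihood).

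All 9 loci listed as clade A PP2C were tested, and 4 were higher and 0 lower, with a median log2 change of 0.70. These phosphatases restrain ABA signalling, and their genes are themselves induced by the hormone. LOC_Os01g62760 rose from 66.6 ± 0.771 to 135.2 ± 34.6 CPM (log2 change 1.02 ± 0.16, adjusted p = 0.000515, edgeR quasi-likelihood). LOC_Os09g15670 had 5, 0 and 9 reads in J10 and rose to 1.03, 3.68 and 8.74 CPM in lad (log2 change 4.16 ± 0.89, adjusted p = 0.00334). No J10 library reached the filter level, so it passed through lad alone and a difference was built into its passing. Of the other 8 loci, 3 were higher. The log2 change of LOC_Os09g15670 was 3.55 without J10 replicate 2, 5.01 without J10 replicate 3 and 3.22 without lad replicate 3 (adjusted p = 0.00633, 0.00802 and 0.0234, edgeR quasi-likelihood). The other two, named after their values were seen, were LOC_Os05g46040 (18.9 ± 1.69 to 30.7 ± 10.5 CPM, adjusted p = 0.019) and LOC_Os01g46760 (10.7 ± 2.14 to 16.3 ± 3.85 CPM, 0.0369), and both calls were lost without J10 replicate 2 or 3 or lad replicate 3 (adjusted p from 0.0529 to 0.16, edgeR quasi-likelihood). That of LOC_Os01g46760 was also lost with upper-quartile factors (0.0513).

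Of 10 loci listed as SnRK2 kinases, 4 were higher, 1 was lower and 5 were not called, with a median log2 change of 0.44. The list does not tell which of these kinases act in ABA signalling. LOC_Os02g34600 rose from 4.05 ± 1.1 to 17.3 ± 2.54 CPM (log2 change 2.10 ± 0.22, adjusted p = 3.45e-05) and LOC_Os03g27280, described by a protein kinase domain, from 6.69 ± 0.91 to 19.6 ± 2.39 CPM (1.55 ± 0.17, adjusted p = 5e-05, edgeR quasi-likelihood). LOC_Os03g55600 fell from 135.6 ± 9.9 to 105.6 ± 4.88 CPM (adjusted p = 0.015), a call lost without lad replicate 1 (0.0653, edgeR quasi-likelihood). The other two higher loci, named after their values were seen, were LOC_Os10g41490 (10.9 ± 3.76 to 23.2 ± 5.54 CPM) and LOC_Os12g39630 (36.9 ± 14.3 to 63.8 ± 12.7 CPM). The latter overlaps LOC_Os12g39620 on the opposite strand, and its adjusted p of 0.021 did not hold without J10 replicate 3 or lad replicate 3 (0.0826 and 0.0959, edgeR quasi-likelihood).

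Of 7 loci listed as ABF-type bZIP or VP1 factors, 5 were tested, 3 were higher and 0 lower, with a median log2 change of 0.77. LOC_Os02g52780 rose from 41.4 ± 6.95 to 70.6 ± 14.6 CPM (adjusted p = 0.00342) and LOC_Os09g28310 from 12.4 ± 1.56 to 21.6 ± 3.99 CPM (0.00387, edgeR quasi-likelihood). LOC_Os06g10880, named after its values were seen, went from 7.13 ± 0.212 to 12.3 ± 3.54 CPM (adjusted p = 0.0128), a call lost without J10 replicate 3 or lad replicate 2 (0.0525 and 0.0531, edgeR quasi-likelihood). All 3 are described by a basic-leucine zipper domain. The locus described by a B3 domain, LOC_Os01g68370, had 3, 4 and 3 reads in J10 and 1, 2 and 1 in lad and was not tested.

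The NCED genes and the RAB16 genes ranked the 3 mutant libraries in different ways. Replicate 3 had the highest level of each NCED gene and the lowest of each RAB16 gene, and replicate 2 held the most RAB16 reads. Relative to the mean of the other two mutant libraries, replicate 3 stood at 2.48 for NCED3, 6.42 for NCED4, 1.58 for NCED5 and 1.46 for ABA8ox1, and at 0.464 for RAB16A, 0.22 for RAB16B, 0.352 for RAB16C and 0.111 for RAB16D. The median of that ratio over all tested genes was 1.01. Of 21216 tested genes with a mutant mean of at least 1 CPM, 3 had a ratio as high as that of NCED4, itself included, and 81 as high as that of NCED3. A ratio as low as that of RAB16B, which was not in the main test, was found for 29 of them. Among the 43 tested pathway loci, replicate 3 was the highest mutant library for 24 and the lowest for 9. The shares over all tested genes were 37.7% and 31.5%. Within the PP2C list, picked after its values were seen, replicate 3 was highest for 8 of the 9 loci. It was not shallower than the others, with 18816338 reads, and no cause of its place was tested. Without it, the number of the 9 genes called higher was 7 and the number called lower 1, since RAB16B and RAB16D then passed the filter.

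Genes with the most similar profile were found by the Euclidean distance between mean-centred log2 CPM values over the 6 libraries, among 21063 tested genes with a mean of at least 1 CPM. Nearest to NCED5 were LOC_Os01g61160, described as a multicopper oxidase (distance 0.324), LOC_Os10g25010, described by an EF-hand, a calcium-binding domain (0.355), and LOC_Os09g39960, described by a dynamin central domain (0.45). LOC_Os01g61160, for example, went from 0.874 ± 0.291 to 21.8 ± 5.47 CPM. Within a distance of 1, 113 genes lay near NCED5 and 2933 near ABA8ox1, so the profile of ABA8ox1 is a common one in this table. Nearest to ABA8ox1 were LOC_Os01g03890 (0.144) and LOC_Os02g47980 (0.177), without description, and LOC_Os03g29920, described by a heavy metal-associated domain (0.268). For RAB16B none of the 21064 genes compared came within a distance of 1. RAB16A, RAB16C and RAB16D, with means of 0.458, 0.577 and 0.327 CPM over the 6 libraries, were not among those genes. The nearest of the genes compared were LOC_Os03g18130, described as an asparagine synthase (1.02), LOC_Os08g05320 (1.04) and LOC_Os01g42860 (1.07), without description. The asparagine synthase locus went from 3.73 ± 0.745 to 37.9, 47.9 and 22.6 CPM in lad replicates 1, 2 and 3, with replicate 3 lowest as for RAB16B. Its log2 change was 3.27. The log2 CPM values carried a prior count of 2, which narrows the change of a gene with 0 reads in J10. A small distance to RAB16B therefore does not mean an equal fold.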

How the data were processed

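The authors deposited whole-number read counts per gene for the 6 libraries in 1 table, not normalized as far as the values show. Per the labels' protocols, TruSeq libraries were prepared from 1 µg of total RNA. Bowtie 0.12.2 and the mouse builds mm8 and mm9 stand in the submitters' processing notes. No source used here names the counting tool, strand setting, annotation or rice build.

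With edgeR 4.0.16 in R 4.3.3, filterByExpr kept 22624 of 30530 genes with a read, and all 6 libraries entered 1 quasi-likelihood fit on genotype after TMM scaling. Two-sided p-values were adjusted over all tested genes (Benjamini-Hochberg, threshold 0.05). A standard error is the absolute log2 change divided by the square root of F. CPM uses library totals times TMM factors. In simulated counts for lad against J10 (22315 genes tested), edgeR recovered 66 of 100 genes changed 2-fold and 90 of 100 changed 4-fold, with 4 false calls. The changed genes all had means above 1 CPM and were far fewer than the genes called in the data. These figures therefore check the method only, and do not cover genes as low as RAB16 or ABA8ox3. Alternatives were other scalings and filters, DESeq2 1.42.0, limma 3.58.1 (voom and trend), a replicate block and each library left out.

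The 9 genes and the lists were chosen with earlier results of these data known. In each pathway list the named loci are the 2 higher and 2 lower with the smallest adjusted p among means of 1 CPM or more, or the most abundant locus if none passed. Similar profiles are given for the most abundant gene of each class. No libraries were merged for the tests, since those of 1 genotype differed beyond counting noise (chi-square over degrees of freedom 9.03 to 30.0). Pooled ratios, their intervals and the lower bounds sum reads over the libraries of a genotype, so they leave out that spread.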

Additional observations from a re-analysis of the deposited data

How the results depend on the processing

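Of the 9 genes, 5 were called higher and 1 lower in the main analysis. The number higher was 3 with the filter of 1 CPM in 3 libraries, which RAB16A and RAB16C did not pass, and 7 with no filter; the number lower was 1 under every alternative run. Leaving out 1 library gave 5 to 7 higher. The 6 members of the main test kept their direction and their call under every alternative in which they were tested. NCED4, RAB16A and RAB16C passed the filter through lad alone, so their kept calls are no further support. ABA8ox3, tested under 5 alternatives, was called in none, and its log2 change ran from -0.12 without J10 replicate 2 to 1.05 without lad replicate 1. The log2 change ranged from 1.40 to 2.21 for NCED3, 3.35 to 5.45 for NCED4, 4.18 to 4.65 for NCED5 and -1.26 to -0.90 for ABA8ox1. Fitted changes of RAB16A and RAB16C ran from 3.17 to 7.77 with the tool and are not given as folds, since the wild type stood at 0. For the pathway lists, leaving out 1 library gave 11 to 20 loci higher and 4 to 7 lower, against 18 and 6. For LOC_Os08g36860, whose change of 0.00 was not called, the log2 change was -0.055 with upper-quartile factors, -0.0082 with DESeq2 size factors in edgeR, -0.0069 with DESeq2, -0.092 with limma-voom, -0.0798 with limma-trend, -0.0025 with no filter, -0.0704 with the replicate block, and -0.36 to 0.26 with 1 library left out. Same-numbered samples of the genotypes share only a number (correlations of their deviations 0.06, 0.13 and -0.03), so they were not treated as pairs; with the replicate block 5868 genes were higher and 4780 lower, against 5644 and 4585, and the members called were 5 and 1. Library totals moved the median log2 change of all tested genes from 0.02 to 0.11, and the share of calls that were higher from 55.2 to 63.1%; upper-quartile factors moved them to -0.041 and 49.3%. Depth limits the RAB16 genes and ABA8ox3, whose libraries held at most 37 reads.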

Other observations

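Other loci described as carotenoid oxygenases, the domain of the NCED enzymes, were also examined, a family picked after values had been seen. The table holds 14, of which 8 were tested, with 6 higher and 0 lower in lad, the 3 NCED genes among the 6. Of the others, LOC_Os12g44310 was the most abundant and rose from 38.3 ± 3.0 to 55.0 ± 2.44 CPM (adjusted p = 0.00246), and LOC_Os01g38580 rose from 0.767 ± 0.246 to 3.09 ± 1.21 CPM (0.00333, edgeR quasi-likelihood). LOC_Os08g28240 had 0 reads in J10 and 1.08, 0.534 and 0.724 CPM in lad. Its pooled lad level is at least 15.0-fold higher at a floor of 3 reads over the J10 libraries. It and NCED4 passed the filter on low counts through lad alone. LOC_Os01g38580 had 17, 18 and 9 reads in J10, so its J10 libraries would not have passed it without those of lad. The count of 6 is thus partly built in. The description alone does not tell which of these loci act in ABA synthesis, since the family also makes other compounds from carotenoids.

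Of 5 loci described as ABA/WDS induced proteins, small proteins named for induction by ABA and water deficit, 4 were tested, 2 were higher and 0 lower. One of the 2, LOC_Os01g73250, had 0 reads in J10 and passed the filter through lad alone. LOC_Os02g33820 rose from 5.34 ± 0.862 to 19.1 ± 7.1 CPM (adjusted p = 0.000418, edgeR quasi-likelihood). The most abundant, LOC_Os11g06720, measured 360.8 ± 160.1 CPM in J10 and 454.8 ± 77.7 CPM in lad (adjusted p = 0.321, edgeR quasi-likelihood), with overlapping genotypes.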
